A study of Mus musculus with 58 samples.

Results

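*Fkbp5*, *Sgk1*, *Plin4*, *Tsc22d3*, *Zbtb16*, *Pdk4*, *Cdkn1a*, *Mt2*, *Errfi1* and *Angptl4* are genes known to be induced by glucocorticoids, and they were taken by their symbols from the tables of both brain regions. They are 10 of 31246 genes, and all of them had an average mean normalized count of at least 10, as did 16456 genes in all. RNA was sequenced from a pair of brain regions, the entorhinal cortex (EC) and, from the visual system, primary visual cortex (PVC), of male mice on a C57Bl/6 strain background, aged 14 to 15 months. Each region was represented by 10 *APOE3/3* and 19 *APOE3/4* libraries, so that 58 libraries were made, and the 29 numbers in the EC titles recurred in the PVC titles. All mice carried human *APOE* targeted into the place of the mouse gene and driven by the mouse promoter, and the labels name no treatment. The *APOE3/3* mice carried the human ε3 allele only, and the *APOE3/4* mice carried ε3 and ε4. The methods state that animals came from a pair of colonies, without the colony of each mouse.

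The level of a gene is given here as its mean normalized count, read here, from the name of its column alone, as the authors' average over the 29 libraries of a region after each was divided by its size factor. Both genotypes enter that mean, no values of single mice were used, and levels therefore carry no SD and no test. A comparison of *APOE3/4* with *APOE3/3* mice was not made here. The tables of the EC and the PVC were normalized separately, and the median gene was 1.87 times as high in the EC table (0.90 on the log2 scale). For comparison between regions the PVC values were multiplied by this factor, so that the median gene had a log2 ratio of EC over PVC of 0. Without that scaling 9 of the 10 genes would be higher in the EC, and every direction below is relative to the median gene.

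Glucocorticoids, which in mice are chiefly corticosterone, cross into cells and bind the glucocorticoid receptor, which is held in the cytoplasm by Hsp90 and its co-chaperones. The bound receptor enters the nucleus and attaches as a dimer to DNA, where its preferred site is a palindrome of paired half-sites. In the brain the same hormone also binds the mineralocorticoid receptor. The genes described here are used as readouts of this pathway in many tissues, although each also responds to other signals such as insulin, fasting, metals or DNA damage.

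The receptor's palindrome was looked for around the start of each gene, and the matches are shown because they are what the genes may share in sequence. The search was for AGAACA, 3 bases of any kind and TGTTCT in the NCBIM37 genome, and because the motif is its own reverse complement 1 search covers both strands. Within 10 kb of the annotated gene start it was present in 1 of the 10 genes, *Angptl4*, and in 0.387% of 22225 protein coding genes. Within 10 kb of any annotated transcript start, a window chosen after the data were seen, it was present in 3 of the 10 genes, *Fkbp5*, *Sgk1* and *Angptl4*, and in 0.625% of all protein coding genes. *Fkbp5* and *Sgk1* have several annotated starts, 5 and 11, and genes with more starts have wider windows. The 4 exact matches follow, each read along the strand of its gene with 6 bases on either side, and the capitals mark the 15-base motif.
Fkbp5, intron, 704 bases before a start: tgtttgAGAACAGCTTGTTCTaggctt
Fkbp5, intron, 8301 bases after a start: acattcAGAACAGGGTGTTCTgtgctc
Sgk1, intron, 182 bases before a start: gcggaaAGAACAGAATGTTCTcggaga
Angptl4, exon outside the coding part, 3567 bases after a start: aacctcAGAACATTTTGTTCTctgttg

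In genome coordinates the *Fkbp5* motifs lie at chr17:28579364-28579378 and chr17:28557266-28557280 on the minus strand. The *Sgk1* motif lies at chr10:21713507-21713521 on the plus strand, and the *Angptl4* motif at chr17:33911836-33911850 on the minus strand. The distances are to the nearest annotated transcript start. From the start of the whole gene the *Angptl4* match is 6677 bases away and the *Sgk1* match 111524 bases. The *Fkbp5* matches, in the order listed, are 75098 and 97196 bases from theirs.

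A looser form of the motif keeps 4 of the 6 bases of each half-site (NGNACA, 3 bases of any kind, TGTNCN) and includes the exact form. Within 10 kb of the gene start this core was present in 7 of the 10 genes, and it was also present in 28.6% of all protein coding genes, or in 36.5% when any transcript start was used. *Tsc22d3*, *Zbtb16* and *Errfi1* had no match to the core within 10 kb of any of their starts. In the other 4 genes with no exact match, the core nearest to a transcript start is shown, again with the 15 bases in capitals.
Mt2, 1076 bases before the start: gctgcgAGGACAGCCTGTCCTgttaca
Plin4, intron, 944 bases after the start: gagtccAGCACAGAATGTCCTctcgca
Cdkn1a, intron, 934 bases after a start: ttggcgGGCACAGTATGTTCCcaggga
Pdk4, 6277 bases before the start: ctaactAGAACACTGTGTCCAgtatag

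These cores lie at chr8:96695435-96695449 (*Mt2*, plus strand), chr17:56248274-56248288 (*Plin4*, minus strand), chr17:29231644-29231658 (*Cdkn1a*, plus strand) and chr6:5452579-5452593 (*Pdk4*, minus strand). A match describes the letters of these windows and not the binding of the receptor.

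**Figure D1:**
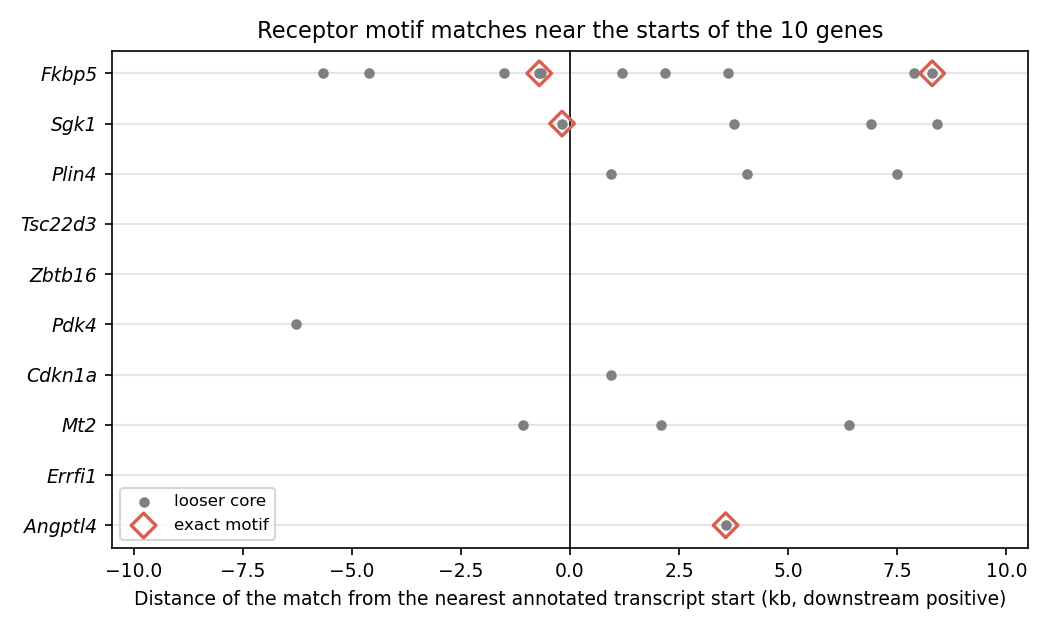
Matches to the looser core (grey points) and to the exact motif (red diamonds) of the glucocorticoid receptor around the 10 genes, with the distance to the nearest annotated transcript start in kb on the x axis and downstream positive. Exact matches stand in *Fkbp5*, *Sgk1* and *Angptl4*, 10 core matches stand in the *Fkbp5* row, of which 2 near the start overlap in the plot, and the rows of *Tsc22d3*, *Zbtb16* and *Errfi1* are empty.

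The genes lie on 7 chromosomes, and 4 of them, *Fkbp5*, *Plin4*, *Cdkn1a* and *Angptl4*, are on chromosome 17. In NCBIM37 *Fkbp5* spans chr17:28536040-28654469 on the minus strand (118.4 kb), and *Cdkn1a* begins farther along the same chromosome at chr17:29227924-29237667 on the plus strand. *Angptl4* covers chr17:33910695-33918520 and *Plin4* covers chr17:56240014-56249225, both on the minus strand. *Sgk1* spans chr10:21601990-21719709 on the plus strand (117.7 kb), and *Zbtb16*, the longest of the genes at 181.6 kb, spans chr9:48462416-48644050 on the minus strand. *Tsc22d3* lies at chrX:137074067-137135198 and *Pdk4* at chr6:5433351-5446309, both on the minus strand. *Mt2* is the shortest, at chr8:96696518-96697467 on the plus strand with 556 exonic bases, and *Errfi1* lies at chr4:150228028-150243001 on the plus strand. *Plin4* shares 6 exonic bases with *Hdgfrp2* on the other strand, and the library kit does not mark strand. The longest run of identical bases in the transcripts of *Mt2* and its neighbour *Mt1* was 20 bases, so a read spanning more than that run tells them apart.

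The genes differed widely in level, and levels of different genes are compared per kilobase of annotated exon. *Mt2*, a metallothionein that binds zinc and copper, was the most abundant in both regions, with 4356 mean normalized counts per kilobase in the EC and 1970 in the PVC. Those levels stood at the 97.3rd percentile of the EC and the 96.3rd percentile of the PVC, among the 15807 genes at or above the minimum that had an exon length. Next came the transcriptional regulators *Tsc22d3* and *Zbtb16*, with 575 and 547 per kilobase in the EC and 400 and 388 in the PVC. In the EC, *Fkbp5*, *Sgk1* and *Errfi1* had nearly equal levels of 339, 338 and 332 per kilobase. In the PVC the same genes were apart, with 138, 380 and 197 per kilobase, so that *Sgk1* stood beside *Zbtb16* there and *Fkbp5* stood below *Cdkn1a*. *Cdkn1a* had 207 per kilobase in the EC and 192 in the PVC, and *Pdk4* had 165 and 94.3. At the low end were the lipid genes *Plin4*, with 59.8 and 36.2 per kilobase, and *Angptl4*, with 34.9 in the EC and 9.32 in the PVC. *Angptl4* stood at the 15.9th percentile of the EC and the 10.3rd percentile of the PVC. These orders depend on the length used. With the longest transcript as length, *Fkbp5*, *Sgk1* and *Errfi1* stood at percentiles 62.9, 61.8 and 53.4 of the EC, and *Zbtb16* at 62.4. In the PVC *Tsc22d3* then stood at 79.9, *Sgk1* at 79.8, *Zbtb16* at 69.3, *Fkbp5* at 55.1 and *Cdkn1a* at 54.8. Whether neighbours in these orders differ beyond the spread between mice was not tested, because only means were used.

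**Figure D2:**
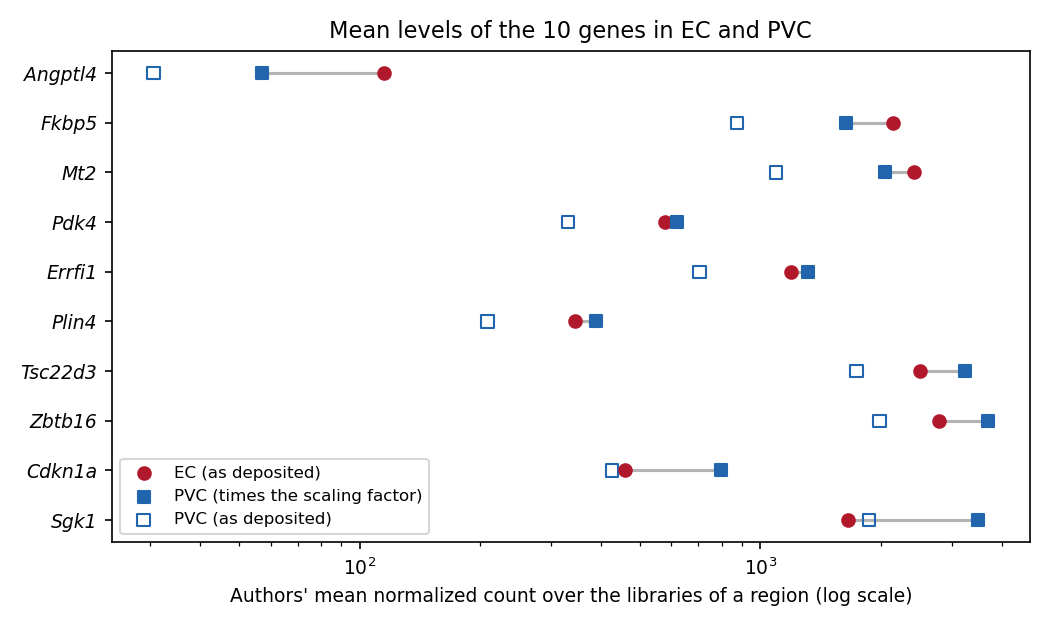
Authors' mean normalized count of each gene on a log scale, over the 29 libraries of the EC (red circles) and of the PVC as deposited (open squares) or after multiplication by 1.87 (filled squares), with no error bars because no values of single mice were used. After scaling, *Angptl4*, *Fkbp5* and *Mt2* were higher in the EC and the other 7 genes were higher in the PVC, whereas as deposited only *Sgk1* was higher in the PVC.

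The study set an area of cortex that is vulnerable in Alzheimer's disease, the EC, beside a resistant one, the PVC, and the 10 genes did not lie to 1 side between them. Of the 10 genes, 3 were above and 7 below the median gene in the EC relative to the PVC, and their median log2 ratio of EC over PVC was −0.16, against 0 for all genes. A single gene, *Angptl4*, was higher in the EC by more than 1.5-fold, a share to be read against 8.38% of all genes. *Sgk1* and *Cdkn1a* were lower in the EC by more than 1.5-fold, against 5.34% of all genes. The middle 50% of all genes had log2 ratios between −0.14 and 0.18, and only *Pdk4* lay within that range, with *Errfi1* at its edge. These are descriptions of pooled means with no test.

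*Fkbp5* encodes a co-chaperone of Hsp90 that lowers the affinity of the receptor for its hormone and so acts as a brake on the pathway that induces it. It had 2140 mean normalized counts in the EC and 873 in the PVC, or 1631 in the PVC after scaling. The log2 ratio of EC over PVC was 0.39 (1.31-fold), higher than in 86.7% of genes.

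*Tsc22d3* and *Zbtb16* encode regulators of transcription. *Tsc22d3* encodes the glucocorticoid-induced leucine zipper protein, which restrains inflammatory transcription factors, and *Zbtb16* encodes a zinc finger repressor. *Tsc22d3* had 2497 mean normalized counts in the EC and 3243 in the PVC after scaling (1737 as deposited). *Zbtb16* had 2789 in the EC and 3699 in the PVC after scaling (1981 as deposited). Both therefore lay to the PVC side of the median gene and close to each other, with log2 ratios of −0.38 and −0.41, at the 9.23rd and 8.47th percentiles of all genes. Neither passed 1.5-fold, and as deposited both means were higher in the EC.

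*Sgk1*, a kinase that controls ion channels and transporters, had the lowest ratio of the 10 genes. It had 1655 mean normalized counts in the EC and 1865 in the PVC, and it was the one gene of the 10 whose deposited mean was higher in the PVC before any scaling. After scaling the PVC value was 3483, or 2.10 times the EC value, a log2 ratio of EC over PVC of −1.07 at the 1.93rd percentile of genes. *Cdkn1a*, which encodes an inhibitor of cyclin-dependent kinases and halts the cell cycle, stood next to it with 460 mean normalized counts in the EC and 797 in the PVC after scaling (427 as deposited). Its log2 ratio was −0.79, that is 1.73 times as high in the PVC, but as deposited its mean was 1.08 times as high in the EC. *Errfi1*, an inhibitor of the epidermal growth factor receptor and the other gene of growth control, had 1189 in the EC and 1315 in the PVC after scaling (704 as deposited). Its log2 ratio was −0.14, at the 24.8th percentile.

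Several markers lay to the same side as *Sgk1* and *Cdkn1a*. Pooled means show a shared side only, and not whether levels vary together between mice. All 5 oligodendrocyte markers, *Mbp*, *Mog*, *Mag*, *Mobp* and *Cnp*, were lower in the EC by more than 1.5-fold, with log2 ratios from −1.64 to −1.0 and a median of −1.52, and all 5 were also lower as deposited. Their summed level in the EC was 0.386 times that in the PVC after scaling, with none at 0 in either region. Of 6 markers of cortical layers, 3 were also lower in the EC past 1.5-fold, *Foxp2* (−1.46), *Rorb* (−1.23) and *Cux2* (−0.92), and 1, *Etv1* (0.65), was higher, with a median of −0.70 and a summed ratio of 0.728. *Ttr*, the most abundant choroid plexus marker per kilobase in the PVC, had a log2 ratio of −2.19, whereas *Kl* and *Clic6* of the same list had 0.01 and −0.01 and *Folr1* was below the minimum. *Foxp2*, *Rorb*, *Cux2* and *Ttr* were lower in the EC as deposited too. The part of these cells in the *Sgk1* and *Cdkn1a* values was not tested. In bulk tissue fewer cells of a type and less RNA per cell cannot be told apart. Neuronal markers had a median of −0.25 and a summed ratio of 0.818, with 5 of 6 listed in the tables, and those of astrocytes had a median of 0.27 and a summed ratio of 1.21.

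The genes of fuel use did not share a direction. *Pdk4* encodes a kinase that shuts down pyruvate dehydrogenase and turns cells from glucose toward fatty acids. It had 578 mean normalized counts in the EC and 618 in the PVC after scaling (331 as deposited), with a log2 ratio of −0.10. *Plin4*, which coats lipid droplets, had 344 in the EC and 389 in the PVC after scaling (208 as deposited), with a log2 ratio of −0.18. *Pdk4* lay within the middle 50% of all genes, and *Plin4*, at the 20.8th percentile, lay just below it. *Angptl4* encodes a secreted inhibitor of lipoprotein lipase. It had 115 mean normalized counts in the EC and 57.2 in the PVC after scaling (30.6 as deposited), which is 2.01-fold higher in the EC, a log2 ratio of 1.01 at the 96.2nd percentile of genes. It was also the least abundant of the 10 genes.

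Markers of the meninges and some of the dentate gyrus and astrocytes lay to the EC side, as *Angptl4* did. Here too the pooled means show a shared side only. All 5 meningeal markers, *Dcn*, *Col1a1*, *Col1a2*, *Igf2* and *Slc6a13*, were higher in the EC by more than 1.5-fold, with log2 ratios from 0.89 to 3.06 and a median of 1.05. Their summed level was 2.71 times as high in the EC after scaling, with none at 0 in either region. Of 4 dentate gyrus markers, 2 were higher in the EC past 1.5-fold, *C1ql2* (1.78) and *Dsp* (0.98), with a median of 0.53 over the list and a summed ratio of 1.26. *Dsp* had mean normalized counts of only 35.7 in the EC and 9.69 in the PVC as deposited. Of the same list *Lct* had a log2 ratio of 0.09, and *Prox1*, at −0.26, lay to the PVC side. The astrocyte marker *Gfap* had a log2 ratio of 0.61, the 1 of 5 astrocyte markers past 1.5-fold, whereas *Aldh1l1*, at −0.36, lay to the PVC side. The part of all these cells in the *Angptl4* value was not tested. Markers of endothelium had log2 ratios from −0.16 to 0.03 with a median of 0.01, and those of pericytes had a median of −0.10.

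*Mt2* had 2422 mean normalized counts in the EC and 2046 in the PVC after scaling (1095 as deposited), a log2 ratio of 0.24 at the 79.4th percentile. *Mt1*, its neighbour and fellow metallothionein, had 4414 and 4009 (2147 as deposited), a log2 ratio of 0.14, so both metallothioneins lay slightly to the EC side. Astrocyte markers lay to the same side, 4 of 5 above 0 with a median of 0.27, and microglial markers had a median of 0.05. The part of these cells in the metallothionein values was not tested. As deposited both metallothioneins were higher in the EC, as any gene above 0 after scaling must be.

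**Figure D3:**
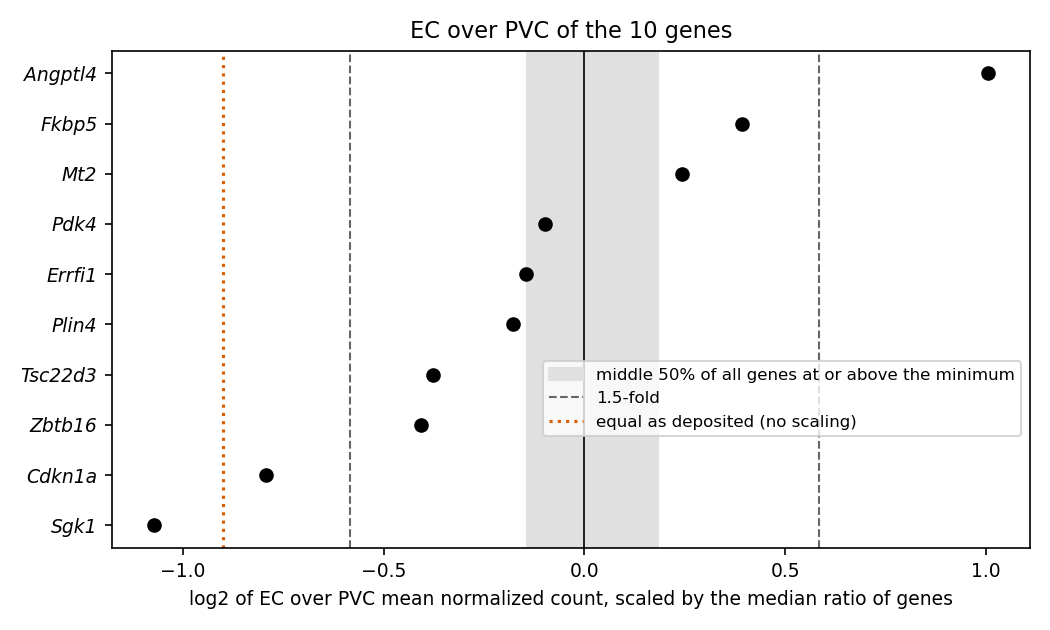
log2 ratio of EC over PVC mean normalized count for each gene after scaling by the median ratio, with the middle 50% of all 16456 genes shaded (−0.14 to 0.18), dashed lines at 1.5-fold and a dotted line where the deposited means are equal. *Angptl4* (1.01) lies past the line on the EC side and *Cdkn1a* (−0.79) and *Sgk1* (−1.07) lie past it on the PVC side, and only *Sgk1* lies left of the dotted line.

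The machinery that carries the hormone signal was set beside these targets. Of 6 genes for the receptors and for handling of the hormone, 5 reached the minimum and 0 passed 1.5-fold in either direction. Of all genes 8.38% were higher and 5.34% lower past that limit, so 0 in so short a list is near those shares. The median log2 ratio of EC over PVC in the list was −0.25. *Nr3c1*, the glucocorticoid receptor, had 5002 mean normalized counts in the EC and 6805 in the PVC after scaling (3644 as deposited), a log2 ratio of −0.44 at the 7.57th percentile. *Nr3c2*, the mineralocorticoid receptor, lay on the other side, with 2805 in the EC, 2384 in the PVC after scaling (1276 as deposited) and a log2 ratio of 0.24. *Hsd11b1*, which regenerates active hormone inside cells, had a log2 ratio of −0.37, and *H6pd*, which supplies the cofactor for that reaction, had −0.25. *Abcb1a*, an efflux pump of the blood-brain barrier that exports steroids, had 0.16. *Hsd11b2*, which inactivates the hormone, had mean normalized counts of only 12.7 in the EC and 7.27 in the PVC as deposited, and on average did not reach the minimum. As deposited, all of these genes were higher in the EC.

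The chaperones of the receptor were much closer to the median gene. Of 7 genes, 0 passed 1.5-fold, the median log2 ratio was 0.01 and the range was −0.24 to 0.15. *Fkbp4*, the co-chaperone that opposes *Fkbp5* and favours hormone binding, had the lowest value, −0.24, with 4546 mean normalized counts in the EC and 5374 in the PVC after scaling (2877 as deposited). *Fkbp5* and *Fkbp4* thus lay on opposite sides of the median gene. The Hsp90 genes *Hsp90ab1* and *Hsp90aa1* had log2 ratios of 0.15 and 0.05, *Ptges3* and *Stip1*, co-chaperones of Hsp90, had 0.04 and 0.01, and *Bag1* and *Hspa8*, of the Hsp70 machinery, had −0.01 and −0.02. Of 8 coregulators, which link the receptor to transcription, 0 passed 1.5-fold, against the same shares of all genes. Their median was −0.05 and their range −0.23 to 0.11. The 2 nearest on each side of 0 were *Ep300* (0.02), *Ncor1* (−0.04), *Smarca4* (−0.05) and *Crebbp* (0.06).

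A further list held 25 genes also known to respond to glucocorticoids, of which 23 were in the tables and 22 reached the minimum. Like the 10 genes, these spread to both sides, with 2 of 22 higher and 5 of 22 lower in the EC past 1.5-fold, against 8.38% and 5.34% of all genes, and a median log2 ratio close to 0 (11 above and 11 below). *Agt*, the precursor of angiotensin, had 1209 mean normalized counts in the EC and 682 in the PVC after scaling (365 as deposited), a log2 ratio of 0.83, and *Nedd9*, an adhesion scaffold, had 0.64. On the PVC side *Arl4d*, a small GTPase, had 373 in the EC and 945 in the PVC after scaling (506 as deposited), a log2 ratio of −1.34. *Dusp1*, a phosphatase that inactivates MAP kinases, had 1433 and 3496 (1872 as deposited), a log2 ratio of −1.29. The transcription factor *Klf9*, the clock gene *Per1* and *Fam107a*, a regulator of actin, had log2 ratios of −0.66, −0.64 and −0.61. As deposited, *Arl4d* and *Dusp1* were higher in the PVC, and *Klf9*, *Per1* and *Fam107a* were higher in the EC. The genes nearest to 0 were *Xdh* (0.05), *Nfkbia* (0.08), *Cebpb* (−0.06) and *Klf15* (−0.12).

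**Figure D4:**
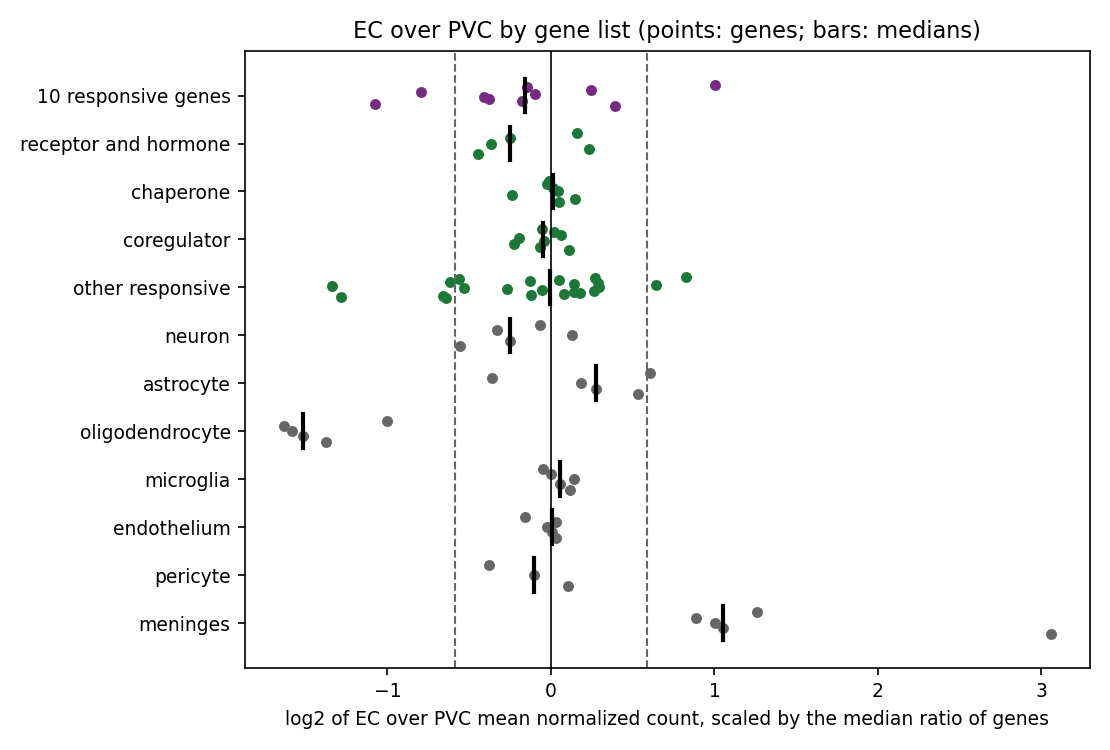
log2 ratio of EC over PVC mean normalized count, scaled by the median ratio, for the 10 responsive genes, the pathway lists and the marker lists, with 1 point per gene at or above the minimum, a bar at each median and dashed lines at 1.5-fold. The 10 genes (median −0.16) and the other responsive genes spread to both sides, the chaperones and coregulators stay within −0.24 to 0.15, the oligodendrocyte markers lie between −1.64 and −1.0, and the meningeal markers lie at 0.89 or above.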

How the data were processed

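RNA-sequencing tables of the EC and the PVC were used, with 29 libraries per region grouped by their labels. Per the submitters' processing notes and the methods, the authors used TopHat2 2.0.6 and Bowtie2 2.0.2.0 for alignment to mm9, counted them per gene with HTSeq on an NCBIM37 annotation and compared genotypes within each region with DESeq2 1.10.1. The mean normalized count, treated as a signal, was deposited by the authors as 1 value per gene and region, and its meaning was taken from the column name. The other 5 columns of each table hold the authors' own genotype comparison (log2 fold change, its standard error, Wald statistic, *p*-value and adjusted *p*-value) and were not used. No values of single mice were used, depth per library was not analysed here, and nothing was tested.

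The 10 genes and the lists were chosen with earlier results of these data known. Ratios were scaled by the median ratio over genes with an average mean normalized count of at least 10, and the limit was 1.5-fold. Lengths and motif positions came from a GENCODE annotation of the NCBIM37 genome, and lengths were found for 96.1% of those genes. The authors counted on a modified annotation of protein coding genes only, so the lengths may differ from the exons counted. Of the lists, all receptor, hormone and chaperone genes were named, and of the coregulators and other responsive genes those past the limit and the 2 nearest to each side of equality. Some genes of the lists are not reported here. Python 3.11.15 was used with pandas 2.3.3, numpy 2.4.6, matplotlib 3.10.9 and scipy 1.17.1. The scaling was tested on simulated data in which equal numbers of genes were raised and lowered. That setting does not check the scaling where more genes change to 1 side. Alternatives were other scalings, minimums, fold limits, lengths and motif windows.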

Additional observations from a re-analysis of the deposited data

How the results depend on the processing

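Without scaling, 4 of the 10 genes (*Angptl4*, *Fkbp5*, *Mt2* and *Sgk1*) kept their direction and 6 turned, since every log2 ratio shifts by 0.90. With no scaling, 6 of the 10 genes were higher in the EC and 0 lower past 1.5-fold, and the median log2 ratio of the 10 was 0.74. Of the genes that turned, *Cdkn1a*, the only one past 1.5-fold after scaling, had 0.11. The others, *Plin4*, *Tsc22d3*, *Zbtb16*, *Pdk4* and *Errfi1*, lay between 0.49 and 0.80. Of all 16456 genes, 14582 were higher and 157 lower past 1.5-fold, so the share higher was larger among all genes than among the 10. Scaling by equal sums, with or without the 10 most abundant genes, moved each log2 ratio by at most 0.03, turned 0 of the 10 genes and gave a median of −0.13 in both cases. With no minimum, 3764 of all genes were higher and 2707 lower. With a minimum of 100, which *Angptl4* does not reach, 0 of the remaining genes of the 10 were higher and 2 lower. Of all genes kept, 683 and 551 were higher and lower. How many genes were kept with no minimum or with a minimum of 100 is not given here, so these counts are not shares. A fold limit of 1.2 gave 2 higher and 4 lower of the 10 genes and 3183 and 2304 of all 16456 genes. A limit of 2 gave 1 higher, *Angptl4*, and 1 lower, *Sgk1*, and 630 and 360 of all 16456 genes. The exact motif was in 0 of the 10 genes within 5 kb of the gene start, against 0.139% of all protein coding genes. Within 50 kb of the gene start it was in 1, against 2.1%. It was in 3 within 10 kb of any transcript start (chosen after the data were seen), against 0.625%. The looser core was in 7 within 10 kb of the gene start, against 28.6%. Percentiles per kilobase moved by up to 23.4 points with no minimum, 16.7 with a minimum of 100 and 8.37 with the longest transcript as length. No paired analysis was possible because no values of single libraries were used, and for the same reason no replicate could be left out. Pooled means give neither spread nor depth, so no difference between regions can be set against the variation between mice.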
